A study of Mus musculus with 6 samples.

Results

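DNA methylation was examined at the genes of 9 transcription factors that set or maintain intestinal epithelial lineages, Hnf4a, Hnf4g, Prdm1, Cdx1, Gata4, Gata6, Elf3, Klf5 and Sox9. The set was taken as named, and each gene was read over its mm10 span with 1000 bases on each side. The libraries came from Apc Min mouse intestinal organoids, cultures of primary epithelial cells that carry a truncating allele of the Wnt inhibitor Apc, kept in organoid medium low in glutamine. In 3 of them the cells had received DM-aKG, a form of α-ketoglutarate going by the series title, and 3 were controls with the same genotype and medium. The sources used here give no dose or duration and do not say whether the biological replicates came from separate animals, so p-values measure only the spread between these libraries. The assay, bisulfite sequencing of a reduced, CpG-rich set of restriction fragments, gave a percent of methylation per position. Of 9 genes, 7 had at least 1 listed position and 5 had the 3 complete sites needed for a test, out of 9197 genes tested in all. A complete site is a position with a value in all 6 libraries.

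These factors divide the work of building the gut lining. The nuclear receptors Hnf4a and Hnf4g act together on enterocyte genes such as those of the brush border and fat absorption, and Cdx1 is a homeobox factor of intestinal identity. Gata4 and Gata6 are zinc finger factors, and Gata4 is known for its restriction to the proximal small intestine. Prdm1 is a repressor that marks the immature epithelium of the suckling gut, Elf3 is an epithelial ETS factor active in differentiating cells, and Klf5 and Sox9 are expressed in the dividing crypt. Methylation of a gene start usually goes with a silent gene, whereas gene bodies are often methylated in expressed genes as well, so a level inside a gene does not give its expression.

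The deposited table holds no value between 0 and 40%, and a 0 was read as no value, which may be a lower level or a missing call. What follows therefore describes methylated cytosines only. The 9 genes held 181 listed positions, of which 92 (50.8%) were complete, against 69.8% of the 390208 positions of the whole table that could be used. No read depth is given, so the precision of a single level is unknown. A level is an average over cells and alleles, and fewer methylated cells cannot be told apart from less methylation per cell.

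No listed position lay in the flanks outside any of the 9 spans, and no complete site lay within 2000 bases of either end of a span. The nearest complete site to a span end was 2895 bases away in Klf5, 3567 in Gata4, 4543 in Prdm1, 6596 in Cdx1, 6644 in Hnf4a and 19939 in Hnf4g. The nearest listed position of any kind was 378 bases from the upper end of Klf5, in a stretch with values in control replicate 3 alone. Elf3 (chromosome 1, 135253574 to 135258472) and Sox9 (chromosome 11, 112782210 to 112787757) had no listed position at all. For Elf3 the nearest one lay 4404 bases upstream of the start. The annotation gives no exons, so exonic and intronic sites could not be told apart.

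RefSeq promoter sequences (GRCm38.p6, the assembly of mm10) were at hand for 3 of the 9 genes, Hnf4a with 2 starts, Prdm1 and Elf3. They are shown for the CpGs that they hold at these starts. Each line gives the 250 bases before a start, 5′ to 3′ on the gene's strand, with every CpG in capitals.
Hnf4a upstream start, chr2:163506607-163506856, forward strand: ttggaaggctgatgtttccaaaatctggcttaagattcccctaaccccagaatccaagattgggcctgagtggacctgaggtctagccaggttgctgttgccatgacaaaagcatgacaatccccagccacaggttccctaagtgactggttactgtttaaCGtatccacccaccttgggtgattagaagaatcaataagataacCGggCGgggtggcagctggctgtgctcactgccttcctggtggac
Hnf4a downstream start, chr2:163546905-163547154, forward strand: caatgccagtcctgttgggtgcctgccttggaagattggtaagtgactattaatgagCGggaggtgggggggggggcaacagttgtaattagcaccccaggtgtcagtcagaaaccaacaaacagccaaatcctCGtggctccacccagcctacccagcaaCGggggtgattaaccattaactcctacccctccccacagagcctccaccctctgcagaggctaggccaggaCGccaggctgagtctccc
Prdm1, chr10:44458749-44458998, reverse strand: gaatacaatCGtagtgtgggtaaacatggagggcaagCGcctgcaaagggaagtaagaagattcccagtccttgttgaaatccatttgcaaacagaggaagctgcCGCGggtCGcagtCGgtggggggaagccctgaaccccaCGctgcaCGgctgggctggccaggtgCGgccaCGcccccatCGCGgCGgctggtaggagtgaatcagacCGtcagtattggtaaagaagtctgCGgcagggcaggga
Elf3, chr1:135258473-135258722, reverse strand: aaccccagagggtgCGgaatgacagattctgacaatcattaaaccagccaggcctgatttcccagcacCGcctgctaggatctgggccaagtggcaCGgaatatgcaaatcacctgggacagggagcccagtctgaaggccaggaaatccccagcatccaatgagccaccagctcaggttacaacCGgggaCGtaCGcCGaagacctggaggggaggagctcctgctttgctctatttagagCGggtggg
The Prdm1 stretch held 15 CpGs, that of Elf3 8, and those of Hnf4a 3 at the upstream and 4 at the downstream start. With the 50 bases after each start included, the counts were 20, 12, 4 and 4, against a median of 7 over 18212 promoter windows of the same length. None of these CpGs was listed. A listed position was also missing from most other starts, since 4.32% of the 18212 windows held one. The letters CCGG, which read the same on both strands and include 1 CpG, occurred 2 times in the upstream Hnf4a window of 300 bases, 1 time in that of Elf3 and in neither of the others. That motif was in 53.4% of all windows, and 7.95% of the windows with it and 0.165% of those without it held a listed position.

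**Figure D1:**
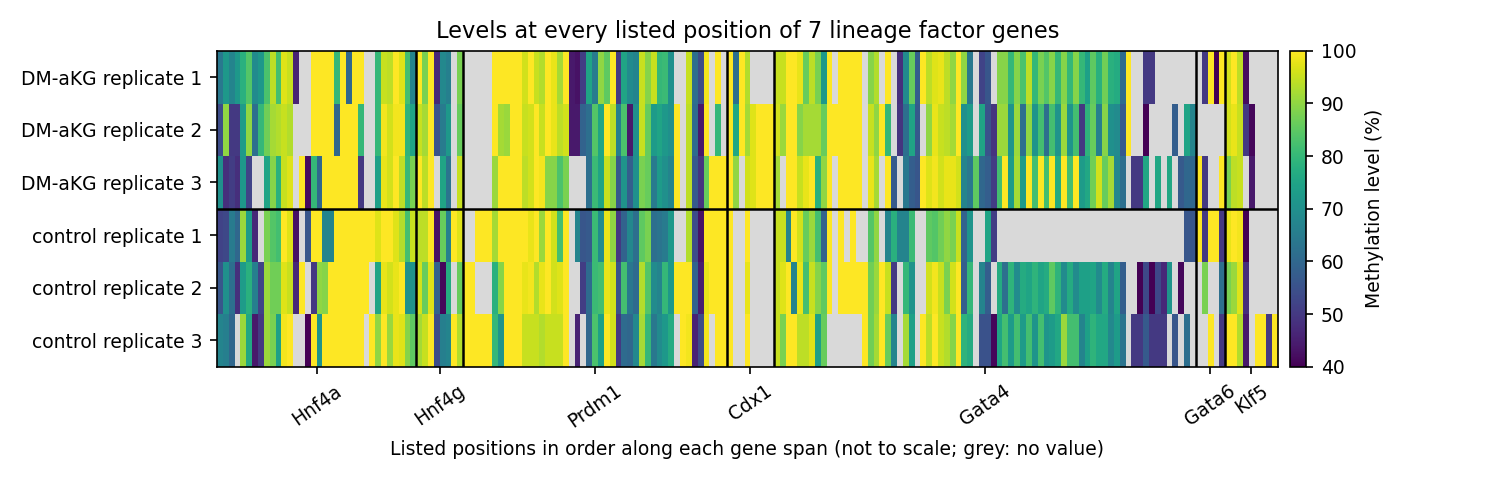
Methylation level (%, colour scale from 40 to 100) at all 181 listed positions of 7 genes (columns, in order along each span and not to scale) in the 3 DM-aKG libraries (upper rows) and the 3 control libraries (lower rows), with grey where a library has no value. The wide grey block of control replicate 1 includes the Gata4 run of 22 positions, and the grey control cells in Cdx1 are positions with values in DM-aKG libraries alone.

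Averaged over their complete sites, the 5 testable genes were heavily methylated in every library and differed little between groups. Hnf4a, with 26 complete sites, stood at 87.3%, 87.8% and 82.6% in DM-aKG libraries and at 87.8%, 85.9% and 89.7% in controls, and the groups overlapped. Its mean was 85.9% ± 2.91 with DM-aKG and 87.8% ± 1.92 in controls (SD, n = 3 each). The difference was -1.88 percentage points (SE 1.82, 95% interval -6.29 to 2.52, limma adjusted p = 0.804), and without DM-aKG replicate 3 it was -0.212. Of its complete sites 10 also lie in the span of the lncRNA gene Hnf4aos and cannot be given to either gene.

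Hnf4g, the partner receptor, had 6 complete sites at 85.0%, 85.0% and 87.8% with DM-aKG and at 89.5%, 80.5% and 85.5% in controls. The control libraries spread more widely than the treated ones and enclosed them. Its difference was 0.778 points (SE 2.37, 95% interval -4.96 to 6.52, limma adjusted p = 0.949), and its sign turned without control replicate 2 (-1.56 points) or without DM-aKG replicate 3 (-0.167).

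Prdm1, with 33 complete sites the best covered of the set, stood at 87.0%, 84.4% and 82.5% with DM-aKG and at 82.4%, 84.7% and 82.4% in controls. DM-aKG replicate 1 lay above every control and the other treated libraries lay within the control range. The difference was 1.47 points (SE 1.48, 95% interval -2.10 to 5.05, limma adjusted p = 0.809), and it was 0.298 without DM-aKG replicate 1.

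Gata4, with 22 complete sites, had 88.8%, 87.1% and 88.1% with DM-aKG and 81.8%, 86.6% and 88.8% in controls. Control replicate 1 was the low one, and the other controls overlapped with the treated libraries. Over all complete sites of the table control replicate 1 was also lowest, at 86.7% against 87.9% to 88.9% in the other libraries. The Gata4 difference was 2.27 points (SE 1.90, 95% interval -2.32 to 6.87, limma adjusted p = 0.771). It was 0.303 without control replicate 1 and 1.22 with equalised library means.

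Klf5, a crypt factor, had the highest mean level over complete sites of the testable genes. Its 3 complete sites averaged 96.7%, 96.3% and 92.3% with DM-aKG and 99.0%, 92.0% and 97.7% in controls. The difference was -1.11 points (SE 2.21, 95% interval -6.47 to 4.25, limma adjusted p = 0.913). It was 0.278 without DM-aKG replicate 3 or without control replicate 1. The 3 sites lay within 14 bases. Beside them, the incomplete position 99310585 was at 40% to 50% in the 5 libraries with a value. The incomplete 99310586 was at 41% and 44% in DM-aKG replicates 2 and 3 alone. Averaged over every valued position, this stretch was at 76.0% to 83.0% with DM-aKG and 81.0% to 84.25% in controls.

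**Figure D2:**
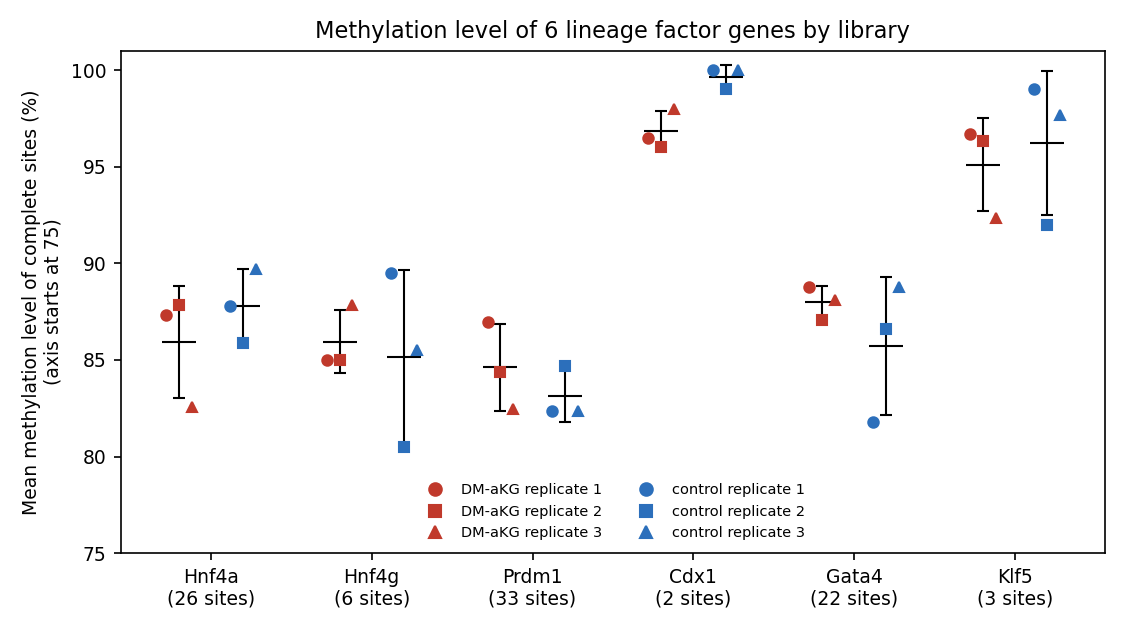
Mean level (%, axis from 75) of the complete sites of 6 genes in each library, with DM-aKG libraries (red) left of controls (blue) and black bars at the group mean ± SD (n = 3). The groups overlap in the 5 testable genes, and in Cdx1, which rests on 2 sites, the DM-aKG libraries (96.0% to 98.0%) lie below the controls (99.0% to 100%).

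None of the 5 genes passed the adjusted threshold of 0.05 by limma, and none had an unadjusted p under 0.05. Over all 9197 genes 1 gene (0.0109%) passed and 631 (6.86%) had an unadjusted p under 0.05. The groups did not overlap in 0 of the 5, where 11.3% of all tested genes had every DM-aKG library above every control and 2.53% the reverse. Of the 5, 3 were higher and 2 lower, with a median difference of 0.778 points, beside 66.4% higher and a median of 0.733 points over all genes. In order of level over complete sites Klf5 (95.7%) came first, then Hnf4a (86.9%), Gata4 (86.8%), Hnf4g (85.6%) and Prdm1 (83.9%). The library values of the last 4 overlapped. Klf5 stood at percentile 92.0 of all tested genes by level, and the others between 26.0 and 38.9. The Klf5 rank rests on 3 sites, without the lower incomplete positions beside them.

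**Figure D3:**
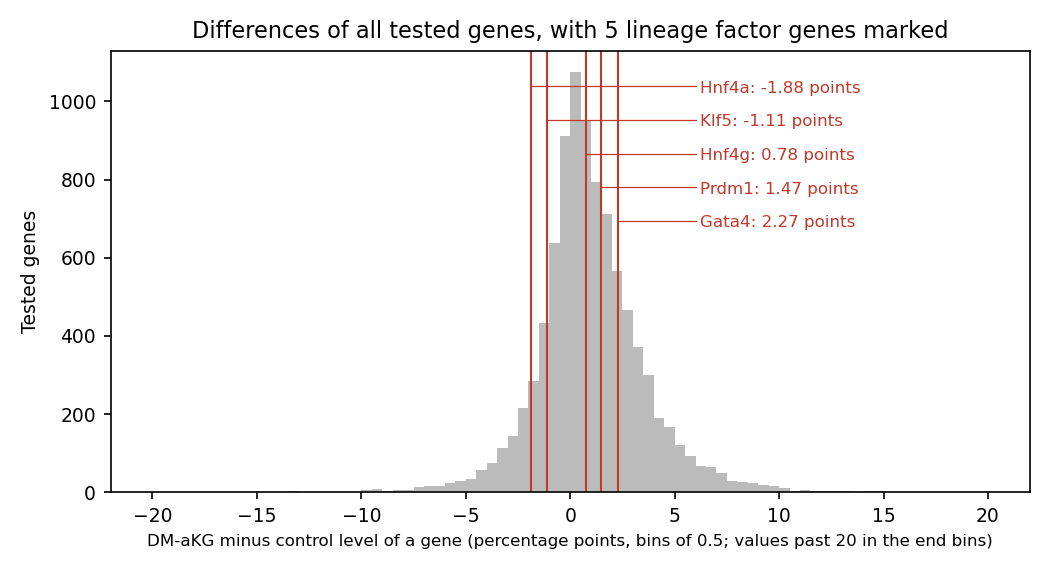
Number of tested genes (vertical axis) by DM-aKG minus control difference (percentage points, horizontal axis, bins of 0.5), over 9197 genes, with red lines for 5 lineage factor genes. The lines run from -1.88 for Hnf4a to 2.27 for Gata4 and lie in the bulk of the distribution, between percentiles 9.11 and 75.1.

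Among the tested genes, the 6-library profile most like that of Gata4 was that of Slc4a10 on chromosome 2, with a mean absolute difference of 0.447 points over the 6 libraries, and 41 genes lay within 1 point of Gata4. For Prdm1 it was Gm35197 (0.552 points, 11 genes within 1 point), for Klf5 Ppp1r9b (0.833), for Hnf4a Lgi3 (0.875) and for Hnf4g Pip4k2a (1.25, no gene within 1 point).

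In the 4 genes with 6 or more complete sites, levels varied more from site to site than between the groups. Site means ran from 48.2% to 100% in Prdm1 (SD over sites 15.6), from 59.2% to 100% in Hnf4a (SD 11.5), from 59.5% to 98.5% in Gata4 (SD 10.7) and from 66.8% to 99.5% in Hnf4g (SD 14.2). In Klf5 (SD 1.42 over 3 sites) and Cdx1 (SD 2.47 over 2 sites) the spread over sites was close in size to the group difference. Of the 92 complete sites 26 (28.3%) had a mean under 80%, against 20.9% of all complete sites, and 13 of these 26 were in Prdm1. The cytosines on opposite strands of a CpG, 1 base apart, differed by 3.98 points on average over 34 pairs in these genes, against 3.46 points over 105028 pairs in the table. The widest gap, 17.2 points, was in Prdm1.

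Neighbouring complete sites were joined into clusters with gaps of at most 100 bases and at least 3 sites, a unit close to a sequenced fragment. The set held 13 of the 32358 clusters of the table. None of the 13 passed the adjusted threshold by limma and 1 had an unadjusted p under 0.05, beside 1 passing cluster (0.00309%) and 1843 (5.7%) at an unadjusted p under 0.05 in the whole table.

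In Hnf4a, clusters lay in 2 zones, and 10 of the complete sites of this gene also lie in the span of Hnf4aos. The first zone followed the upstream start by 6598 to 7173 bases. There a cluster of 5 sites at 163513455 to 163513494 was partly methylated, at 73.0%, 71.4% and 58.6% with DM-aKG and 66.8%, 67.8% and 72.0% in controls, with DM-aKG replicate 3 the lowest of the 6. The next cluster, 5 sites at 163513962 to 163514030, was at 86.8% to 92.0% with DM-aKG and 90.2% to 91.4% in controls. A step from partial to high methylation was therefore present in every library.

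The second Hnf4a zone followed the downstream start by 15168 to 19046 bases. Its cluster at 163562502 to 163562540, with 6 sites, was the one cluster of the set whose groups did not overlap. It stood at 90.0%, 90.0% and 91.7% with DM-aKG and at 94.5%, 100% and 100% in controls. The difference was -7.61 points (SE 1.93, 95% interval -12.3 to -2.92, limma adjusted p = 0.833). Of all clusters 2.51% had every DM-aKG library below every control and 8.37% the reverse. The DM-aKG values under 100% lay at 3 of its sites, 163562503 (80%, 60% and 100%), 163562524 (60%, 100% and 100%) and 163562540 (100%, 80% and 50%), each at 100% in every control. The site 163562502 was at 100% in the DM-aKG libraries and at 67% in control replicate 1. The cluster just before it, 3 sites at 163562323 to 163562354, went the other way by 8.11 points (SE 6.53), with 100%, 100% and 80% against 89.0%, 76.3% and 90.3%, and the groups overlapped. That difference was 4.78 without DM-aKG replicate 1 or 2, 14.8 without DM-aKG replicate 3, and 3.67 when control replicate 2 was left out. When the 2 clusters were joined by a gap of up to 200 bases the difference was -2.37 points.

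In Prdm1, 1 of the 3 clusters was highly methylated and the other two were partly methylated at similar levels. The cluster of 12 sites at 44441717 to 44441894, which is 16854 to 17031 bases downstream of the RefSeq start, was at 95.1% to 97.8% with DM-aKG and 92.8% to 96.6% in controls. The cluster of 15 sites at 44456617 to 44456844, 1904 to 2131 bases downstream of the start, was partly methylated. It had 79.1%, 76.6% and 73.8% with DM-aKG and 71.3%, 76.3% and 73.7% in controls. Its difference of 2.71 points (SE 2.06, 95% interval -2.28 to 7.70, limma adjusted p = 0.850) was the largest of the 3. Leaving out DM-aKG replicate 1 gave 1.42 points, and leaving out control replicate 1 gave 1.46. Site means within these 228 bases ran from 54.7% to 96.0%, and neighbours could differ widely: 44456702 was at 85%, 100% and 95% with DM-aKG and at 98%, 98% and 100% in controls, while 44456708 was at 50%, 66% and 57% against 50%, 55% and 50%. The third cluster, 4 sites at 44475160 to 44475226, lies upstream of that start, at -16412 to -16478 bases, but inside the longer annotated span. It was at 71.5% to 77.5% with DM-aKG and 72.5% to 75.5% in controls, and its site means ran from 48.2% to 97.0%.

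In Gata4 the cluster of 4 sites at 63202994 to 63203022 had the largest difference, 4.0 points (SE 2.98, 95% interval -3.21 to 11.2, limma adjusted p = 0.848). It stood at 85.0%, 90.5% and 91.5% with DM-aKG and at 79.5%, 87.8% and 87.8% in controls, and without control replicate 1 the difference was 1.25. The cluster at 63225465 to 63225592 had 94.6%, 93.8% and 97.6% against 86.8%, 94.8% and 94.2%, with control replicate 1 again the low one. In Hnf4g the 1 cluster, at 3527969 to 3528017, was at 95.7% to 98.0% with DM-aKG and 93.0% to 96.0% in controls, 1.67 points apart (SE 1.52).

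**Figure D4:**
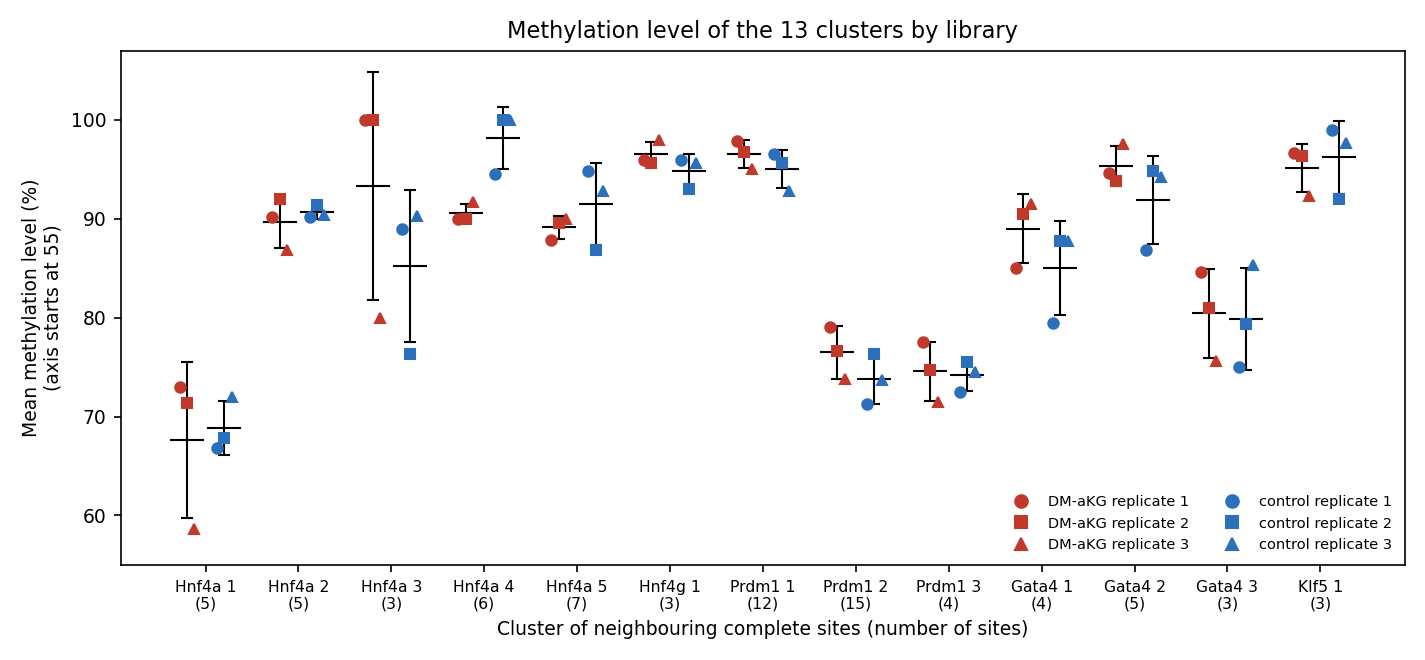
Mean level (%, axis from 55) of the 13 clusters, named by gene and order along the chromosome with their number of sites, in each DM-aKG (red, left) and control (blue, right) library, with black bars at the group mean ± SD (n = 3). The fourth Hnf4a cluster is the one without overlap, with 90.0% to 91.7% against 94.5% to 100%.

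At single positions, 0 of the 92 complete sites passed the adjusted threshold by limma on untransformed levels, and 0 did on log2 odds. At an unadjusted p under 0.05 there were 5 (5.43%), against 5.44% of all complete sites in the table, where 0 sites (0.0%) passed. The groups did not overlap at 9 of the 92, 6 with DM-aKG above and 3 below, beside 4.63% and 2.5% of all complete sites. By sign, 45 of the 92 were higher, 39 lower and 8 equal, with a median difference of 0 points, and over the table the median was 0.667 points.

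The site with the largest difference among those 9 was Prdm1 at 44456790, with 80%, 75% and 73% in DM-aKG libraries and 63%, 67% and 69% in controls, a difference of 9.67 points (SE 2.60, limma adjusted p = 0.811). In the same cluster 44456617 had 75%, 62% and 62% against 57%, 61% and 60%, and 44456844 had 70%, 70% and 67% against 72%, 72% and 77%. Sites of 1 cluster thus went both ways. The difference at 44456617 was 7.0 points, and 2.67 without DM-aKG replicate 1, and that at 44456844 was -4.67, and -3.0 without control replicate 3. In Hnf4a the site at 163513962 had 83%, 87% and 75% against 88%, 91% and 91%, while the nearby 163514011 had 94%, 92% and 89% against 84%, 87% and 88%. The difference at 163513962 was -8.33 points, and -5.0 without DM-aKG replicate 3. The Hnf4a site at 163566162 had 100%, 99% and 100% against 97%, 98% and 98%. In Gata4 the site at 63213609 had 89%, 95% and 98% with DM-aKG and 84%, 87% and 87% in controls, and that at 63225591 had 94%, 94% and 98% against 90%, 88% and 93%. The adjusted p of each of these sites by limma was 0.811 or more.

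Cdx1, on chromosome 18 from 61018862 to 61036199, differed from the other genes in which libraries had values. Of its 8 listed positions, between 61029083 and 61029790, the DM-aKG libraries had values at 4, 8 and 7 and each control at 2. The share with a value was 79.2% ± 26.0 with DM-aKG and 25.0% ± 0 in controls (SD, n = 3 each). The groups did not overlap (exact two-sided permutation p = 0.1, the smallest that 3 against 3 allows). A position is listed only if at least 1 library has a value, and 6 of these 8 had values in DM-aKG libraries alone. They entered through the group with the higher share, so the test gives no support of its own for a difference. Of 10361 genes with at least 3 listed positions, 263 (2.54%) had the share of every DM-aKG library above that of every control, and 617 (5.96%) had the reverse. The position 61029149 was at 62%, 76% and 90% with DM-aKG and had no value in any control. The 4 positions from 61029708 to 61029790 were at 97% to 100% in DM-aKG replicates 2 and 3 and had no value in DM-aKG replicate 1 or in any control. Values that appear in 1 group alone may reflect a level that crossed 40% or a fragment that was read in 1 group alone, and these cannot be told apart here.

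Both complete Cdx1 sites were almost fully methylated. The first, at 61029083, was at 100% in all 6 libraries. The second, at 61029603, had 93%, 92% and 96% with DM-aKG and 100%, 98% and 100% in controls, a difference of -5.67 points (SE 1.5, limma adjusted p = 0.811) with groups that did not overlap.

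Over the 9 genes, 10 of the 181 positions had a value in 2 or 3 DM-aKG libraries and in no control, 6 of them in Cdx1, where 2.9% of all positions did so. The reverse, a value in 2 or 3 controls and in no DM-aKG library, held for 11 positions, 6 of them in Prdm1, where the table had 5.11%. A value in all 3 DM-aKG libraries and no control was found at 2 positions (0.314% in the table), the Cdx1 position above and Gata4 at 63218308, with 58%, 57% and 56%. A value in all 3 controls and no DM-aKG library was found at none (0.459% in the table).

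The share of positions with a value in Prdm1 also did not overlap, in the direction that 5.96% of genes showed. Of its 45 listed positions 36, 37 and 36 had one with DM-aKG and 40, 40 and 41 in controls, 80.7% ± 1.28 against 89.6% ± 1.28 (SD, n = 3 each, exact two-sided permutation p = 0.1). The 6 Prdm1 positions valued in controls alone were at 100% in 2 of 3 controls each. Of these, 5 lay at 44441413 to 44441679, beside the highly methylated first cluster. All 6 were listed through controls alone, and 1 other position through DM-aKG libraries alone. The test of the Prdm1 share therefore gives no support of its own either. Over the whole table the share with a value was 85.2% to 86.0% in DM-aKG libraries and 83.7% to 88.6% in controls, and the part of such library differences in the Prdm1 and Cdx1 shares was not tested. In Hnf4a, Hnf4g, Gata4, Gata6 and Klf5 the exact permutation p of the share was 0.2 or more.

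Gata4 held a stretch that 1 library lacked. From 63251388 to 63251659 on chromosome 14, 20053 bases inside the upper end of the span, 22 positions in 272 bases had a value in every library but control replicate 1, which had none. Of 43566 runs of 3 or more listed positions in the table, 53 (0.122%) were complete in 5 libraries and absent from 1, and among the 2397 runs of 20 or more it was the 1 such run. Its positions count among the listed positions and in the Gata4 share with a value. They are not in the gene, cluster and site levels above, which need all 6 libraries. Control replicate 1 was the lacking library in 22 of the 53 runs. It also had no value at the 8 listed Gata4 positions from 63255307 to 63255362, where each other library had 2 to 6.

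In the 5 libraries that had it, the Gata4 run averaged 82.9%, 76.1% and 85.6% with DM-aKG and 73.5% and 76.0% in control replicates 2 and 3. The run was picked after its values were seen, and DM-aKG replicate 2 was almost level with control replicate 3. The difference was 6.77 points, and the exact permutation test (two-sided, 10 assignments, smallest possible p 0.1) gave p = 0.2. Fitted by limma with 33548 clusters complete in these 5 libraries, it had an SE of 3.13, a 95% interval of -1.19 to 14.7 and an adjusted p of 0.944. The median over those clusters was 0.5 points.

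Apart from 2 unpaired positions, the run falls into 10 pairs, 1 base apart, the lower of each being the cytosine of the forward strand. On the forward strand the run was at 87.6%, 85.3% and 93.3% with DM-aKG and at 73.1% and 80.2% in the controls, and at 9 of 10 positions the DM-aKG mean was the higher one. On the reverse strand it was at 78.4%, 65.1% and 79.2% with DM-aKG and 73.6% and 72.0% in the controls, higher at 4 positions and lower at 6. Positions this close can share reads, so these are not counts of independent sites. The strands were split after the values were seen, so no test is given.

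**Figure D5:**
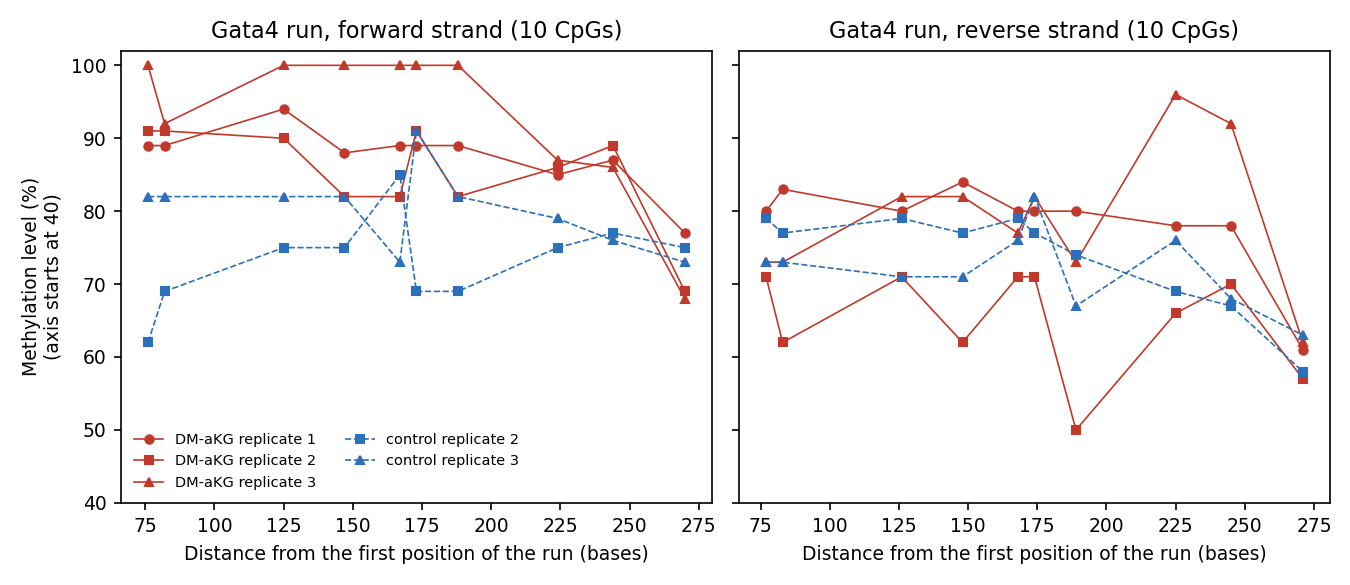
Methylation level (%, axis from 40) at the 10 CpGs of the Gata4 run read on both strands, against the distance from the first position of the run in bases, for the forward strand (left) and the reverse strand (right), in 3 DM-aKG libraries (red, solid) and control replicates 2 and 3 (blue, dashed). On the forward strand the DM-aKG libraries average 85.3% to 93.3% and the controls 73.1% and 80.2%, while on the reverse strand DM-aKG replicate 2, at 65.1%, lies below both controls.

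Gata6 and Klf5 had little to compare. Gata6, on chromosome 18, had 5 listed positions from 11064401 to 11064559 and no complete site. DM-aKG replicate 2 had a value at 0 of them, DM-aKG replicates 1 and 3 at 4 and 3, and the controls at 5, 2 and 2, with levels between 40% and 100%. In Klf5, 4 positions at 99313008 to 99313034 had values of 50% or 100% in control replicate 3 alone.

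Of 44 other intestinal transcription factor genes listed for absorptive, secretory or crypt cells, 18 were tested, and 0 passed by limma or had an unadjusted p under 0.05. Of these 18, 10 were higher and 8 lower with DM-aKG, and their median difference was 0.0709 points beside 0.733 over all genes. Of 11 absorptive and regional factors 5 were higher and 6 lower (median -0.164 points). Of 4 secretory factors 3 were higher (median 1.8), and of 3 crypt factors 2 (median 0.0714).

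The groups did not overlap in Prox1 (DM-aKG above) and Tcf7 (DM-aKG below), 1 of the 18 genes each. Over all tested genes the shares were 11.3% above and 2.53% below. Prox1, a homeobox factor found in enteroendocrine cells, had 87.4%, 87.4% and 91.4% with DM-aKG and 85.6%, 86.7% and 86.2% in controls (difference 2.56 points, SE 1.38, limma adjusted p = 0.725). Tcf7, a nuclear partner of β-catenin in Wnt signalling, had 86.6%, 86.6% and 85.7% against 86.9%, 89.3% and 87.7% (difference -1.69 points, SE 1.05, limma adjusted p = 0.738). Onecut2, a cut-homeobox factor, had the smallest p of the 18, and its groups overlapped, with 94.0%, 97.0% and 94.7% against 90.8%, 95.1% and 90.5% (difference 3.09 points, limma adjusted p = 0.725).

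The files hold no expression values, so the labelled tissue could not be checked against the expression of its markers. As methylation levels, the 4 tested epithelial marker genes of 8 averaged 87.4% to 88.3% in DM-aKG libraries and 87.6% to 89.4% in controls. The 5 tested fibroblast marker genes of 7 averaged 81.4% to 84.5% with DM-aKG and 77.7% to 80.2% in controls, without overlap. All complete sites of the table averaged 88.3% to 88.9% with DM-aKG and 86.7% to 88.0% in controls, also without overlap. Of all tested genes, taken singly, 11.3% had every DM-aKG library above every control. No such share was taken for means over several genes. Ptprc, the 1 immune marker tested of 5, was at 72.9% to 79.0% against 65.3% to 75.8%, and Pecam1, the 1 endothelial marker tested of 4, at 89.8% to 90.4% against 88.1% to 91.6%. The part of other cell types in the values of the lineage factors was not tested.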

How the data were processed

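Percent methylation was deposited as 1 table of 813850 positions for 6 libraries (3 DM-aKG, 3 control), in whole percent as rounded by the authors. Per the submitters' processing notes the build was mm10 and the tools were CASAVA 1.8 and Novoalign 3.08.02; the sources used here name no methylation caller or filter. Values are 0 or lie between 40 and 100, and no coverage is given, so depth per site is unknown. After row 390208 the columns of control replicates 1 and 2 are out of register with the other 4; the break is the change point (lowest cumulative sum) of rows valued in those 2 libraries alone or in the other 4 alone. The 390208 rows before it were used, with 272327 complete sites. All 9 genes lie before it. Positions count from 1: 4149 of 4153 positions in RefSeq promoter windows then fall in a CpG, and 2300 when counted from 0.

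Gene spans came from GRCm38.p6 (34614 protein-coding or lncRNA genes). Means of complete sites per gene (flank 1000 bases, at least 3 sites) and cluster, and single sites, were fitted over the whole table with limma 3.58.1 in R 4.3.3 on untransformed levels, DM-aKG minus control, adjusted by Benjamini-Hochberg (threshold 0.05). These choices depart from an earlier analysis on log2 odds, kept as an alternative. The share of positions with a value was set beside that of all genes with at least 3 listed positions. Single values were compared by an exact permutation test over 20 assignments. Since every complete site lay inside a span away from its ends, the planned comparison by place had 1 class. The fits were run on simulated data with changes larger than the gene, cluster and named site differences of the set. Changes of the size seen in the set were not simulated.

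The 9 genes and all lists were chosen with earlier results of these data known. Named were all 9 genes; sites without group overlap, at most 2 per direction and gene; clusters with the largest difference; of the other factors those without overlap and the one with the smallest p; and the most alike gene by mean absolute difference. The Hnf4a clusters with partial and high methylation, the other Prdm1 and Gata4 clusters, the Gata4 run and the positions valued in 1 group alone were chosen after their values were seen.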

Additional observations from a re-analysis of the deposited data

How the results depend on the processing

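Across the alternatives run, no gene or cluster of the set passed the threshold, and 2 sites passed in 1 setting. With each 0 counted as a level, 2 sites passed, Cdx1 at 61029149 and Gata4 at 63218308, both without a value in any control, and 11 genes, 2379 sites and 136 clusters of the whole table passed. On log2 odds 0 genes, 407 sites and 7 clusters passed. The 1 gene called was lost with at least 5 sites per gene or with every position valued in a library (0 each), and the 1 cluster called with at least 5 sites, a gap of 50 bases, equalised library means, a replicate block, robust variances or a variance trend (0 each). With single replicates left out, 0 to 1 genes, 0 to 9 sites and 0 clusters passed.

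Values moved or turned as follows. With each 0 counted, the differences were -10.0 points for Hnf4g, -8.81 for Prdm1, 50.2 for Cdx1 (all turned), 14.5 for Gata4, -11.7 for Klf5 and -5.48 for Hnf4a (same direction), and -3.25 for the Hnf4g cluster and 2.33 for the Klf5 cluster (both turned). With equalised library means Hnf4g was at -0.273, with every valued position Prdm1 at -1.57, and with a gap of 200 bases the third Hnf4a cluster, then joined to the fourth, at -2.37. With single replicates left out, differences ranged from -2.85 to -0.212 points for Hnf4a, -1.56 to 2.94 for Hnf4g, 0.298 to 2.54 for Prdm1, 0.303 to 3.8 for Gata4 and -3.22 to 0.278 for Klf5 and its cluster. The shares of positions with a value ranged from -30.0 to 10 points for Gata6 and -18.5 to 3.70 for Klf5. The median of the other factors was -3.61 with each 0 counted and -0.980 with equalised library means. The 9 named sites kept their direction in all 108 settings run on them. This gives no support to them, since they were named for groups that do not overlap. Leaving out a library or taking log2 odds cannot turn such a site. The other settings, except equalised library means, leave its difference as it is. Where not stated by the setting itself, the cause was not tested.

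Same-numbered libraries did not deviate together (correlations 0.0652, -0.0276 and 0.0306 over genes), so the numbers were not taken as pairs. The replicate block changed no call in the set and moved the count of clusters called in the table from 1 to 0. The Gata4 run fit and the share alternatives were chosen after seeing the data. The variance settings bear on no permutation test, and Klf5 has too few sites for at least 5 per gene or for positions 1 base apart averaged, so these gave no value. Unknown depth limits every single level.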
